A study of Mus musculus with 8 samples.

Results

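The comparison described here sets mouse embryonic stem (ES) cells with a stably lowered level of Taf5 against cells with a control knockdown. Its members were chosen by the labels alone, which put all 8 of the 8 arrays of the series into it, 4 with Taf5-kd cells and 4 with control-kd cells. The parental cells were IB10, a subclone of the E14 mouse ES line, and both groups descend from them. Every line of both groups carried an integrated pLKO-puro lentivirus with a short-hairpin RNA, was selected with puromycin, was picked as a resistant colony after 10 days and was expanded. All were grown in medium with serum and leukaemia inhibitory factor (LIF) on gelatin. The Taf5-kd group comprised 2 lines with a hairpin against Taf5, and the control-kd group comprised 2 lines with a control hairpin whose target the labels do not give. Each line is 1 clone, so a clone's own history is part of every value, and the effect of a hairpin cannot be told apart from clonal differences beyond what 2 clones per group show. Each line was grown in 2 cultures, and the RNA of each culture was amplified, labelled and hybridised on 1 dual-colour long-oligonucleotide array together with a common pool of parental RNA. Array 1 of a line carried the line in Cy3 and the pool in Cy5, and array 2 the reverse. All levels below are log2 ratios of a line to that parental pool, as processed by the authors, so 0 is the parental level and 1 is a doubling.

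TFIID is the general transcription factor that recognises core promoters and nucleates the RNA polymerase II preinitiation complex. It is built from the TATA-binding protein and a set of TBP-associated factors (TAFs), and Taf5, a WD40-repeat subunit, is part of the scaffold around which the histone-fold TAFs assemble. ES cells are held in a pluripotent state by a network of transcription factors around Pou5f1, Sox2 and Nanog, and TFIID subunits are known to be needed for that network's full activity. The comparison asks which transcripts differ between ES cells with lowered Taf5 and cells that went through the same transduction and cloning.

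The median signal of the sample channel lay between 123 and 186 intensity units per array over a median local background of 35 to 39.5, and between 90.9 and 98.7% of the 41174 probes for mouse genes gave a signal above it. Across probes, which are not independent replicates, correlations between arrays were 0.928 to 0.959 within a line, 0.714 to 0.824 between lines of the same kind and 0.177 to 0.483 between the groups. All 11 measured ES marker genes were above background on all 8 arrays, but so were 20 of 24 mesoderm, blood and vessel genes. Detection alone therefore cannot check the ES label. The marker signals were above the array medians, with a median of 34479 units for Zfp42, 19002 units for Pou5f1 and 527.6 units for Fgf4 in control-kd cells. Control-kd line 2 stood apart from the other 3 lines in markers of extraembryonic endoderm, the yolk sac lineage that ES cells can form. Gata6 lay at 2.95 in control-kd line 2 against -0.02 in control-kd line 1, 0.18 in Taf5-kd line 1 and 0.64 in Taf5-kd line 2. Sox7 and Dab2 stood at 2.33 and 1.39 in that line, whereas Afp and Ttr stayed at -0.09 and 0.02. Control-kd line 2 was also alone in lacking most of the signal of the Y-linked genes Eif2s3y, at -4.97 against 0.41 to 0.47 in the other lines, and Uty, at -2.02 against -0.02 to 0.71. The Y-linked genes Kdm5d and Usp9y did not follow. Kdm5d lay at -0.38 and -0.40 in control-kd lines 1 and 2, and Usp9y, dim at 66.3 units in control-kd cells, at -0.01 and -0.05. Because control-kd line 2 differs in this way, the values of each line are given separately for the genes the results turn on. Because the samples are bulk RNA, fewer cells with a transcript and less of it per cell cannot be told apart.

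Taf5 itself was lower on every Taf5-kd array. Its brightest probe lay at 0.49 and 0.58 on the arrays of control-kd line 1 and at 0.18 and 0.16 on those of control-kd line 2. It lay at -1.18 and -1.16 in Taf5-kd line 1 and at -1.08 and -1.19 in Taf5-kd line 2. The groups did not overlap, and the Taf5-kd lines were closer to each other than the control-kd lines were. The difference of Taf5 was -1.50 ± 0.13 (log2, SE, n = 2 lines per group), which is 2.83-fold lower (limma, Benjamini-Hochberg adjusted p = 0.0204). The other probes of Taf5 gave differences of -1.62 and -1.63. With the line as the unit, the call for Taf5 was lost without control-kd line 2 (-1.68, adjusted p = 0.0505), without Taf5-kd line 1 (-1.49, adjusted p = 0.108) and without Taf5-kd line 2 (-1.52, adjusted p = 0.0666). Of the 15 other TFIID subunit genes, 1 fell (6.67% against 4.32% of all genes) and none rose (against 7.21%). That gene was Taf7, a subunit that regulates TFIID's activity, at 0.68 and 0.57 in the control-kd lines against 0.22 and 0.12 in the Taf5-kd lines, a difference of -0.45 ± 0.07 (adjusted p = 0.0359). The median difference of the TFIID genes was 0.05, against 0.0058 over all 18295 genes.

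**Figure D1:**
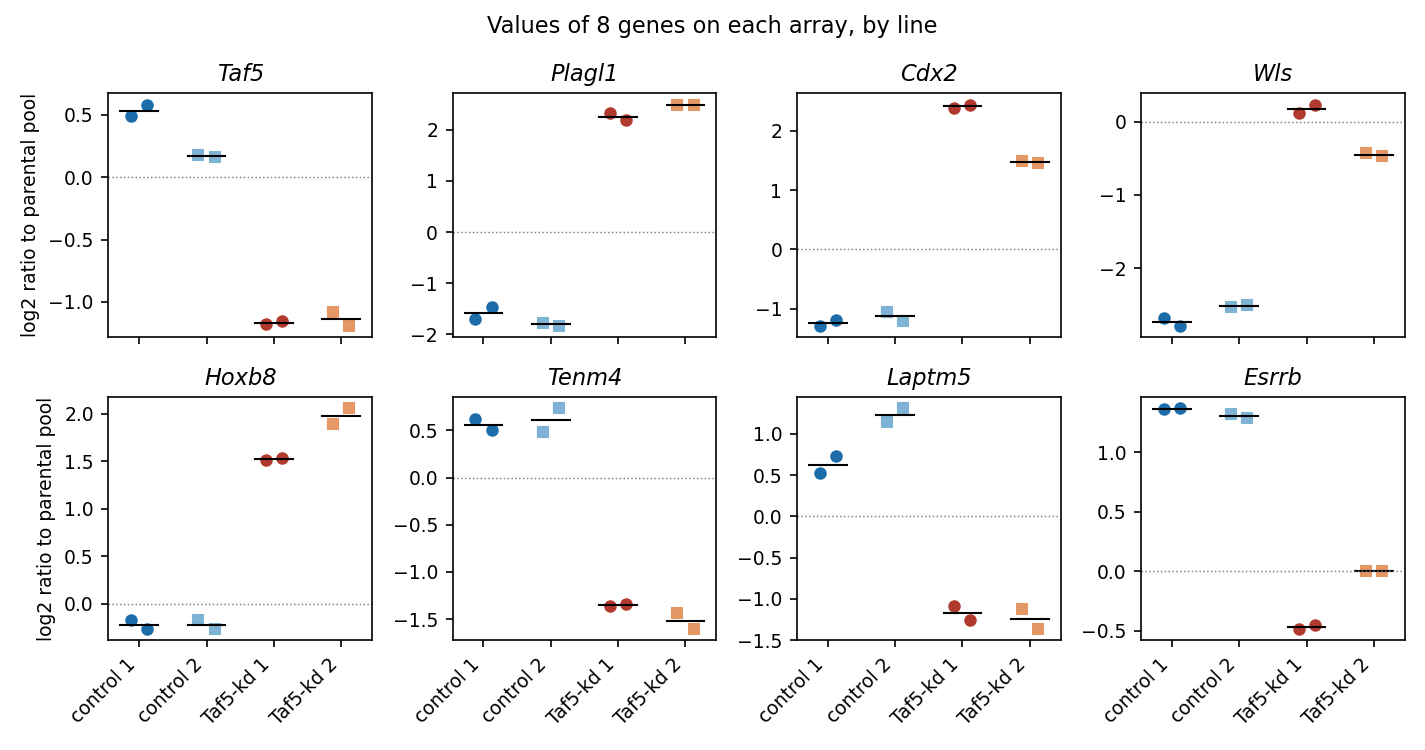
Log2 ratio to the parental pool (vertical axis, a scale of its own in each panel) of 8 genes on each array, by line on the horizontal axis. Points are single arrays, 2 per line, black bars are line means and the dotted line is the parental level. Taf5 lies at -1.19 to -1.08 on the 4 Taf5-kd arrays and at 0.16 to 0.58 on the 4 control-kd arrays, and the groups do not overlap in any panel.

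Many genes differed between the groups, with more rises than falls. Taking the mean of the 2 arrays as the value of a line, 3610 of 41174 probes passed an adjusted p of 0.05 (8.77%), 2241 of them higher in Taf5-kd cells (5.44%) and 1369 lower (3.32%). With each gene represented by its brightest probe, 2109 of 18295 genes passed (11.5%), 1319 higher (7.21%) and 790 lower (4.32%). All 2109 had the same direction in each of the 4 Taf5-kd to control-kd line pairings, which was also true of 62.0% of all genes and 58.2% of all probes. The changes were mostly modest, with a median size of 0.61 on the log2 scale among the genes that passed and 709 of them under 0.5. A difference of at least 1 in every pairing was reached upward by 165 genes (0.902%) and downward by 95 (0.519%), of which 144 rose, 88 fell and 28 did not pass. These counts depend on the lines: 1128 probes passed without control-kd line 1, 716 without Taf5-kd line 2, and 0 without control-kd line 2 or without Taf5-kd line 1, where 9334 and 7403 probes had an unadjusted p under 0.05 by the same limma test. With scanner values centred on the array median, 147 probes passed, 75 higher and 72 lower. The authors' deposited table of this comparison holds 4247 probes with a p-value under 0.05, and 3142 of them passed here as well, which is 74.0% of theirs and 87.0% of those called here.

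The 15 leading rises, ranked by the smallest of their 4 line pairings, were 4.66-fold to 16.7-fold higher in Taf5-kd cells. They were the imprinted transcription factor gene Plagl1, Prss23, Anxa3, Cdx2, Igf2, Zfp677, Tpm1, Dppa3, Fndc3c1, Slc39a8, Irgm1, Wls, Tdrkh, Id2 and S100a6. In all 15, both control-kd lines lay more than 1 log2 unit under the parental level. Both Taf5-kd lines lay above 0.5 in 4 of them (Plagl1, Cdx2, Zfp677 and Tdrkh) and within 0.5 of the parental level in 4 others (Igf2, Tpm1, Wls and Id2). Taf5-kd line 1 was the higher of its group in 13 of the 15. No pairing of lines gave a rise under 1.95, against control-kd line 1 or line 2, which restates the ranking. For each of the 30 leading rises and falls the 4 arrays of a group did not overlap with those of the other. The direction was the same in both dye orientations. Both results follow largely from choosing these genes by their smallest line pairing, so they are no separate evidence. All 30 had a p-value under 0.05 in the authors' deposited table, which rests on the same arrays. Of the 30, 18 had further probes, and these did not all follow the brightest one. Of 29 such probes 13 passed in the same direction and 16 did not pass, and in 7 genes, Plagl1, Prss23, Anxa3, Tdrkh, D1Pas1, Tbx3 and Defa3, no further probe passed. Among all genes named here, 16 had a further probe with every pairing in the opposite direction, none of which passed. Without control-kd line 1, 13 of the 30 no longer passed, without Taf5-kd line 2, 10, and without either of the remaining lines, none passed.

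Plagl1, a zinc finger transcription factor expressed from the paternal allele, lay at -1.70 and -1.47 in control-kd line 1, at -1.77 and -1.83 in control-kd line 2, at 2.32 and 2.19 in Taf5-kd line 1 and at 2.49 and 2.49 in Taf5-kd line 2. It rose by 4.06 ± 0.12 (log2, SE; 16.7-fold; adjusted p = 0.017), from the lower to the higher side of the parental level. On 1 of the 4 control-kd arrays its signal was not above background, and its other probe, with median signals of 270.0 and 336.3 units in control-kd and Taf5-kd cells, gave a difference of 0.083 (adjusted p = 0.6). The rise of Plagl1 thus rests on 1 probe. Cdx2, the homeobox factor of trophectoderm and of the posterior embryo, lay at -1.29, -1.18, -1.05 and -1.20 on the control-kd arrays and at 2.38, 2.44, 1.48 and 1.45 on the Taf5-kd arrays. It rose by 3.12 ± 0.33 (adjusted p = 0.0231), and it was the only 1 of 6 measured trophoblast markers to pass. Eomes, another trophoblast factor, lay at 0.82 in Taf5-kd line 1 but at -0.16 in line 2 and at -0.09 and 0.0013 in the control-kd lines. Tfap2c, at -0.76, -1.53, -0.60 and -0.50 in the lines in the same order as for Plagl1, was not above the parental level in any line. Zfp677, a zinc finger gene, lay at -1.64 and -1.47 in the control-kd lines and at 1.87 and 0.84 in the Taf5-kd lines. Tdrkh, a Tudor-domain protein of the piRNA pathway, lay at -1.14 and -1.29 in the control-kd lines and at 0.91 and 1.10 in the Taf5-kd lines, a narrow spread within each group, but its 2 other probes gave differences of -0.087 and 0.15.

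Other leading rises, except Irgm1 and Fndc3c1, lay under the parental level or less than 0.5 above it in the Taf5-kd lines, and far under it in the control-kd lines. Prss23, a serine protease gene, lay at -4.76, -4.86, -4.56 and -4.57 on the control-kd arrays and at -1.38, -1.35, -1.41 and -1.33 on the Taf5-kd arrays. All 4 lines were thus below the parental cells, and the rise of 3.32 ± 0.10 (adjusted p = 0.017) is the distance between 2 lowered levels. Its other probe, dim in both groups, gave a difference of 0.080. Anxa3, a calcium-dependent phospholipid-binding annexin, lay at -3.83 and -3.72 in the control-kd lines against -0.26 and -0.85 in the Taf5-kd lines, and its other probe, near background, gave a difference of -0.080. Wls, the carrier that takes Wnt ligands to the cell surface, lay at -2.68, -2.79, -2.52 and -2.51 on the control-kd arrays and at 0.12, 0.23, -0.43 and -0.47 on the Taf5-kd arrays, and rose by 2.49 ± 0.23 (adjusted p = 0.0214). Id2, whose product blocks helix-loop-helix transcription factors, lay at -2.47 and -2.07 in the control-kd lines and at 0.06 and -0.11 in the Taf5-kd lines. The growth factor gene Igf2, at -3.81 and -2.68 against 0.04 and -0.30, and the tropomyosin gene Tpm1, at -2.56 and -2.62 against 0.10 and -0.37, had the same form. So did S100a6, a calcium-binding protein gene, at -2.65 and -2.50 in the control-kd lines against 0.24 and -0.55 in the Taf5-kd lines. Irgm1, an interferon-inducible GTPase gene on chromosome 11, had the widest spread between the Taf5-kd lines among the leading rises, at 1.78 in line 1 and 0.38 in line 2. Fndc3c1, a fibronectin type III domain gene of the X chromosome, rose by 2.66 ± 0.27, and its near-identical neighbour Fnd3c2 by 2.03 ± 0.22, so the value of each is uncertain.

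The 15 leading falls were 3.49-fold to 9.43-fold lower in Taf5-kd cells. They were D1Pas1, Lrrc2, Slc11a1, Tbx3, Tenm4, Defa3, Spink1, Rpl39l, Defa-ps6, Laptm5, Mymx, Defa24, Ankrd33b, Mrc1 and Pros1. The ranking leaves out symbols that are clone or accession names, which removed 1 gene, AU018091 of chromosome 7, an expressed sequence that would have ranked second among the falls. AU018091 lay at -0.11, -0.072, -0.074 and -0.037 on the control-kd arrays and at -2.96, -3.06, -2.24 and -2.21 on the Taf5-kd arrays, and fell by 2.54 ± 0.27 (adjusted p = 0.0236). Its control-kd lines were thus near the parental level and its Taf5-kd lines far below it. In all 15 named falls, both control-kd lines lay more than 0.5 above the parental level, and in 12 more than 1 above it. Both Taf5-kd lines lay more than 0.5 below it in 10. D1Pas1, an autosomal relative of the DEAD-box RNA helicase gene Ddx3x, lay at 1.77, 1.68, 1.80 and 1.85 on the control-kd arrays and at -1.91, -1.90, -1.04 and -1.01 on the Taf5-kd arrays, and fell by 3.24 ± 0.31 (log2, SE; adjusted p = 0.0216). Another probe of D1Pas1 gave a difference of -0.24 (adjusted p = 0.0992). Tenm4, a teneurin of the cell surface that guides contacts between neurons, lay at 0.62, 0.50, 0.49 and 0.74 on the control-kd arrays and at -1.36, -1.34, -1.43 and -1.61 on the Taf5-kd arrays. It fell by 2.02 ± 0.08 (adjusted p = 0.017), and the lines of a group differed little. Of its 3 other probes 1 passed (-1.16), and 2 gave differences of -0.022 and 0.088. Pros1, which codes for the anticoagulant protein S, lay at 1.21 and 1.19 in the control-kd lines and at -0.53 and -0.68 in the Taf5-kd lines, again with little spread inside the groups. Tbx3, a T-box factor of naive pluripotency, lay at 1.92 and 2.11 in the control-kd lines, at -0.72 in Taf5-kd line 1 and at the parental level in line 2. Ankrd33b, an ankyrin repeat gene, was at the parental level in both Taf5-kd lines (0.04 and -0.01) and at 1.79 and 2.62 in the control-kd lines. The alpha-defensin genes Defa3, Defa24 and Defa-ps6 of chromosome 8, antimicrobial peptides known from Paneth cells, have nearly identical sequences. Their differences of -2.39, -2.32 and -2.26 count as 1 observation, and which of them was measured is uncertain. Rpl39l, which codes for a ribosomal protein variant, fell by 2.26 ± 0.23, and Mymx, whose product fuses the membranes of muscle precursors, by 2.24 ± 0.27. Spink1, a trypsin inhibitor gene, fell by 2.27 ± 0.23 and Lrrc2, a leucine-rich repeat gene, by 2.41 ± 0.19.

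Several of the falls are genes known from macrophages. Slc11a1, the metal transporter of the phagosome, lay at 1.05, 1.11, 1.67 and 1.76 on the control-kd arrays and at -0.99 and -0.88 in the Taf5-kd lines, a difference of -2.34 ± 0.23 (adjusted p = 0.0221). Laptm5, a lysosomal membrane protein of blood cells, lay at 0.52, 0.73, 1.15 and 1.31 against -1.09, -1.25, -1.12 and -1.37, and fell by 2.13 ± 0.21. The mannose receptor gene Mrc1 lay at 1.54 and 1.59 in the control-kd lines and at -0.82 and -0.18 in the Taf5-kd lines. Of 17 macrophage markers listed after these values had been seen, 4 fell, namely Laptm5, Mrc1, the lysosomal protein gene Cd68 (difference -1.63) and Ms4a6d (-1.84). The list was written around Laptm5 and Mrc1, so its count is set against nothing. The 13 others, among them Ptprc, Itgam, Adgre1, Csf1r and the transcription factor gene Spi1, had differences of -0.12 to 0.11. Defining markers of the lineage were dim in both groups, with median signals of 72.4 and 79.2 units for Ptprc and of 85.6 and 105.0 units for Adgre1 in control-kd and Taf5-kd cells. The summed signal of the 17 genes ran from 3538 to 5431 units on the control-kd arrays and from 2565 to 3990 on the Taf5-kd arrays.

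**Figure D2:**
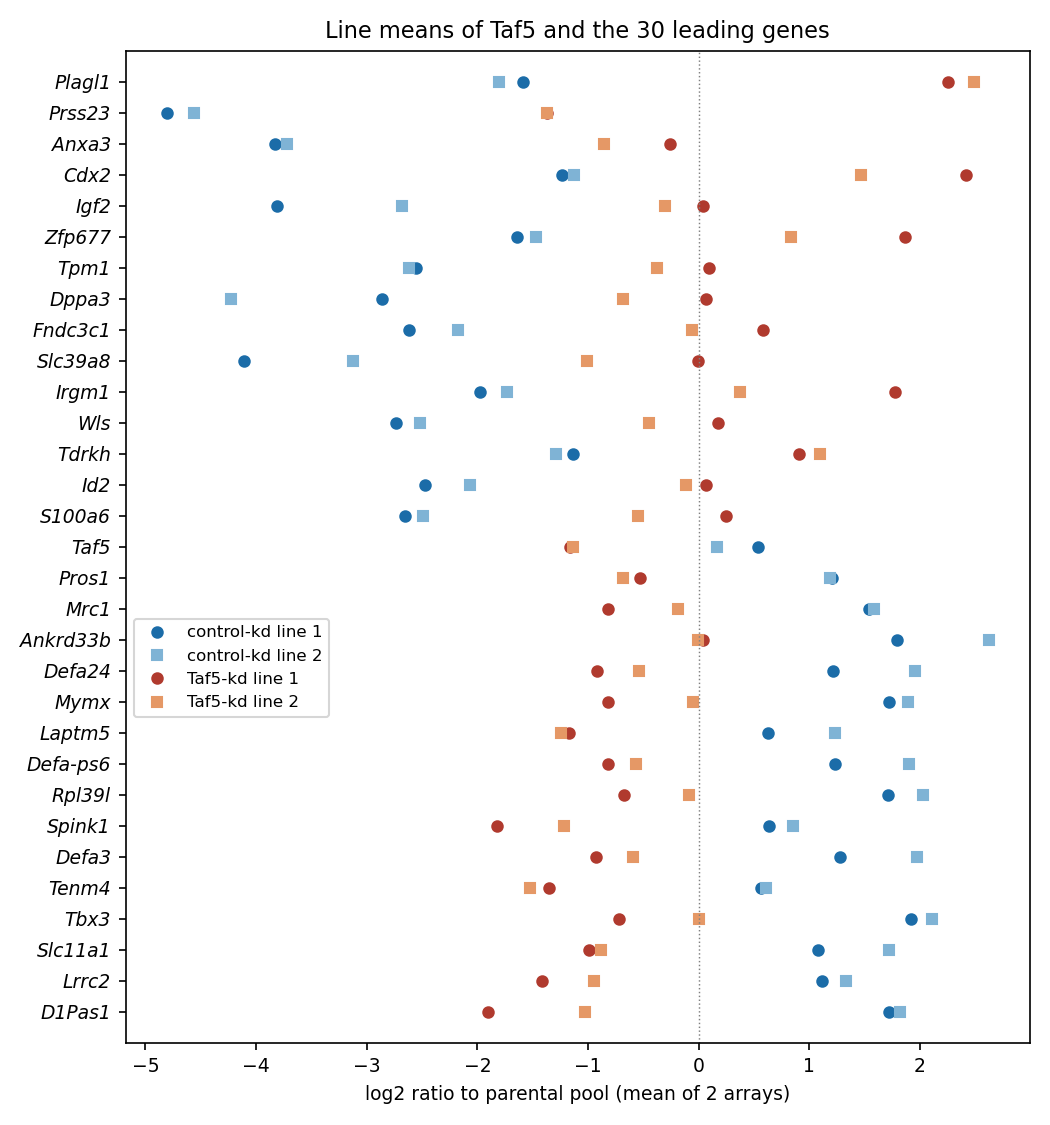
Log2 ratio to the parental pool (horizontal axis) of Taf5 and the 30 leading genes, one gene per row, each point the mean of the 2 arrays of a line. The control-kd lines lie left of -1 for all 15 rises and right of 0.5 for the 15 falls drawn, which do not include AU018091. The lines of the other group lie apart from them in every row, which for the 30 leading genes follows from their ranking by smallest line pairing. The dotted line is the parental level.

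Because both groups were measured against the same parental pool, each gene that passed could be placed by which group had left the parental level. The comparisons of the groups with the parental level share that pool, and the levels are given side by side as a description. For 335 of the genes that rose and 168 of those that fell, both control-kd lines lay more than 0.5 from the parental level on 1 side while both Taf5-kd lines lay within 0.5 of it. The reverse, Taf5-kd lines beyond 0.5 and control-kd lines within it, held for 145 rises and 118 falls. In 21 rises and 26 falls the groups lay beyond 0.5 on opposite sides, and in 33 rises and 9 falls on the same side. In 485 rises and 317 falls all 4 lines lay within 0.5, and the remaining 300 rises and 152 falls had lines of 1 group on different sides of that limit. Values just inside and outside the limit of 0.5 differ little, so these counts describe the spread and mark no separate kinds of gene.

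Hoxb8, a homeobox gene of the posterior body axis on chromosome 11, led the genes in which the Taf5-kd lines alone had left the parental level. It lay at -0.17, -0.27, -0.18 and -0.27 on the control-kd arrays and at 1.52, 1.54, 1.89 and 2.06 on the Taf5-kd arrays, and rose by 1.97 ± 0.16 (adjusted p = 0.0188). Its signal was dim in control-kd cells, with a median of 54.3 units against 211.1 in Taf5-kd cells. Another probe of Hoxb8, not above background on every array, gave -0.18 with every pairing downward and did not pass (adjusted p = 0.442). Fabp7, a fatty acid binding protein of radial glia and neural progenitors, lay at -0.48 to -0.42 on the control-kd arrays and at 0.96 to 1.44 on the Taf5-kd arrays, and rose by 1.66 ± 0.14. Pctp, a phosphatidylcholine transfer protein gene of chromosome 11, lay at -0.32 and -0.49 in the control-kd lines and at 1.29 and 1.13 in the Taf5-kd lines. On the side of the falls, AU018091 (difference -2.54) came first. Among genes with other than clone names Mmrn2, an extracellular matrix protein gene of blood vessels, lay at 0.38 and 0.49 in the control-kd lines and at -1.10 and -0.99 in the Taf5-kd lines, a difference of -1.48 ± 0.07. Among genes in which the control-kd lines alone had left it, the chaperone gene Hspb1 lay at 1.40 in both control-kd lines and at -0.20 and 0.03 in the Taf5-kd lines. Among genes below the parental level in all 4 lines, Prtg, an immunoglobulin superfamily gene of the early embryo, lay at -2.58 and -3.02 in the control-kd lines and at -0.51 and -0.72 in the Taf5-kd lines. Thbs1, the gene of the matrix protein thrombospondin, lay at -3.43 and -3.38 against -2.02 and -1.60.

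**Figure D3:**
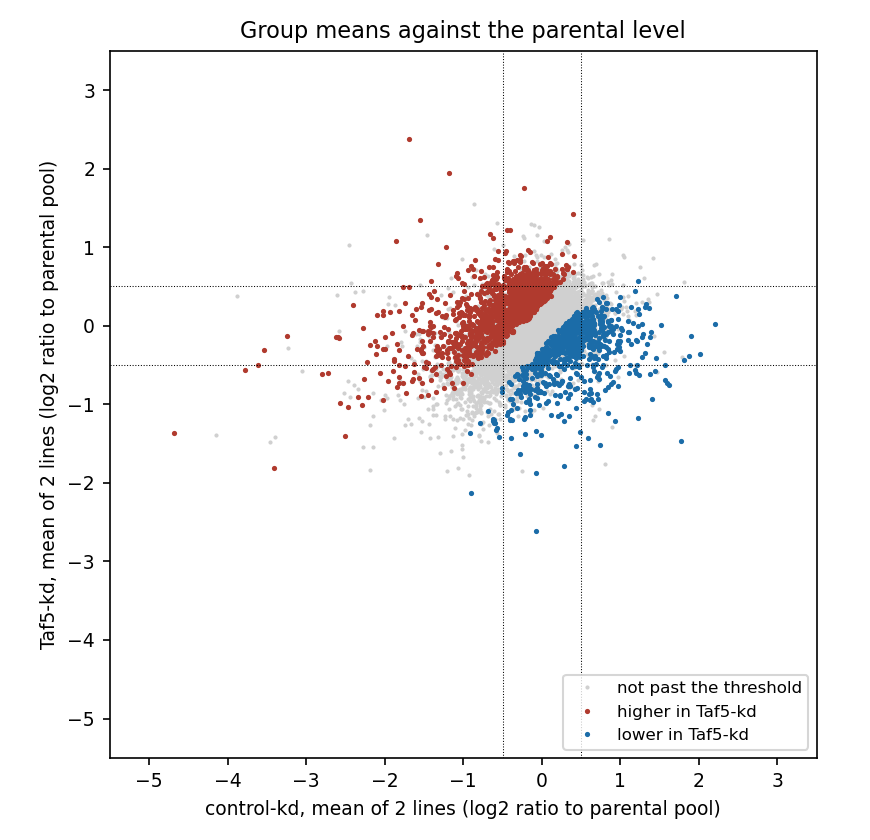
Mean log2 ratio to the parental pool of the 2 control-kd lines (horizontal axis) and of the 2 Taf5-kd lines (vertical axis) for 18295 genes, coloured by direction where the adjusted p was under 0.05. Dotted lines mark 0.5 on either side of the parental level. The 1319 rises reach farther to the left than upward, and the 790 falls spread to the right and downward.

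The listed ES cell markers that passed all fell. Of the 11 measured, 3 fell (27.3% against 4.32% of all genes) and none rose. The median difference of the 11 was -0.54, in a range of -1.57 to 0.51. All pairings were downward in 8 of them, as in 29.0% of all genes, and upward in 1. Dppa3, a leading rise outside this list, lay at -2.86 and -4.22 in the control-kd lines and at 0.07 and -0.68 in the Taf5-kd lines. Esrrb, an orphan nuclear receptor of naive ES cells, lay at 1.36, 1.37, 1.32 and 1.29 on the control-kd arrays, at -0.49 and -0.46 in Taf5-kd line 1 and at the parental level in Taf5-kd line 2, and fell by 1.57 ± 0.17 (adjusted p = 0.0236). Its other probe, with median signals of 108.4 and 130.1 units in control-kd and Taf5-kd cells, gave a difference of 0.031 (adjusted p = 0.86). The fall of Esrrb thus rests on 1 probe. Dppa5a, an RNA-binding protein gene of pluripotent cells, lay at 0.52 and 0.71 in the control-kd lines and at -1.12 and -0.50 in the Taf5-kd lines. The growth factor gene Fgf4 lay at 0.21 and 0.18 against -0.82 and -0.63. Pou5f1, with 0.35, 0.85, -0.05 and 0.17 in control-kd lines 1 and 2 and Taf5-kd lines 1 and 2, did not pass (difference -0.54, adjusted p = 0.184), nor did Nanog (-0.66, adjusted p = 0.0974) or Sox2 (-0.36). Pou5f1 and Sox2 were thus near the parental level in the Taf5-kd lines and above it in the control-kd lines. Among the fibroblast markers only the receptor gene Pdgfrb rose, by 0.39, while the collagen gene Col1a1, at -3.26 and -3.53 in the control-kd lines against -2.15 and -0.67 in the Taf5-kd lines, did not pass (adjusted p = 0.101). None of the 8 extraembryonic endoderm markers passed, with differences of -1.05 to 0.04, and none of the 4 measured Y-linked genes did.

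Among the lists of lineage and developmental pathway genes, the Hedgehog and neural progenitor lists had the highest shares of rises. Of 22 neural progenitor genes, 4 rose (18.2% against 7.21%) and none fell: Fabp7, the intermediate filament gene Nes (-1.28 and -1.19 in the control-kd lines, 0.23 and -0.01 in the Taf5-kd lines), the zinc finger gene Zic2 (1.03) and the homeobox gene Lhx2 (0.33). The median difference of that list was 0.04. Of the 14 Hedgehog pathway genes, 4 rose (28.6% against 7.21%) and 1 fell (7.14% against 4.32% of all genes). The receptor component Smo rose by 0.80, the co-receptor gene Gas1 by 0.80 and the transcription factor gene Gli3 by 1.12, whereas its relative Gli2 fell by 1.08 ± 0.18 (adjusted p = 0.0429). Gli2 lay at 0.72 and 0.44 in the control-kd lines and at -0.71 and -0.29 in the Taf5-kd lines, and Gli3 at -1.12 and -0.83 against 0.29 and -0.01. These paralogs thus moved in opposite directions on their brightest probes. No further probe of either passed, with differences of -0.0956 for Gli2 and of -0.0445, 0.0922 and -0.0239 for Gli3. Each of the 2 directions rests on 1 probe. In the Notch list the ligand gene Dll3 (1.18) and the co-activator gene Maml1 of chromosome 11 (0.83) rose out of 22 (9.09% against 7.21%). Of 18 retinoic acid response genes 1 rose (5.56% against 7.21%), the binding protein gene Crabp2, at -0.71 and -0.51 in the control-kd lines against 0.51 and 0.57 in the Taf5-kd lines. None of 24 mesoderm, blood and vessel genes passed, and of 16 definitive endoderm genes 1 fell (6.25% against 4.32%), Shisa2 (-0.77). Of 26 germline and meiosis genes, Tex19.1 (1.40) and Tdrd1 (0.66) rose (7.69% against 7.21%). The germ cell RNA-binding protein gene Dazl (-1.50) and the cohesin gene Smc1b (-0.68) fell (7.69% against 4.32%). Dazl lay at 1.04 and 0.90 in the control-kd lines and at -0.71 and -0.35 in the Taf5-kd lines. Among the 9 measured genes of the 2-cell stage, 1 fell (11.1% against 4.32%), Eif1a (-0.36).

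In the lists of cell surface genes 1 to 3 members passed each, to be read against the 7.21% of all genes that rose and the 4.32% that fell. Nrp2, a co-receptor for semaphorins and vascular endothelial growth factors, lay at -2.12 and -2.25 in the control-kd lines and at -0.06 and -0.44 in the Taf5-kd lines, and rose by 1.94 ± 0.14 (adjusted p = 0.0184). The secreted semaphorin genes Sema3e and Sema3a rose by 1.45 and 0.31, and these were the 3 changes among 27 semaphorin and plexin genes. Of 20 ephrin genes the receptor gene Epha1 (1.56) and the ligand gene Efna5 (0.64) rose. Itgb1, the beta subunit shared by many integrins and encoded on chromosome 8, lay at -1.91 and -1.72 against -0.47 and -0.52, and it was the only 1 of 24 integrin and laminin genes to pass. All pairings were downward in 12 of the 24, none of which passed, and in 29.0% of all genes. Pkp2 (1.82) and Dsc2 (1.54), both components of desmosomes, rose and the gap junction gene Gjb5 (-0.92) fell out of 17. Of 20 tight junction genes 1 rose, Marveld3 of chromosome 8 (1.69).

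Among 26 growth factor ligand genes, 5 fell (19.2% against 4.32%) and 2 rose (7.69% against 7.21% of all genes). Bmp4, a ligand that sustains ES cell self-renewal together with LIF, lay at 0.61 and 0.84 in the control-kd lines and at -0.66 and -0.53 in the Taf5-kd lines. Vegfc, a lymphatic growth factor gene of chromosome 8, lay at 0.73 and 0.72 against -0.77 and -0.58 and fell by 1.40 ± 0.08 (adjusted p = 0.017), against the prevailing direction of its chromosome. Tgfb2 rose by 1.50 and the macrophage growth factor gene Csf1, at -2.32 and -2.27 against -0.84 and -1.18, by 1.28. Of 24 protease and inhibitor genes, 5 rose (20.8% against 7.21%), among them Mmp2 (1.36), Timp3 (0.90) and the urokinase receptor gene Plaur (0.72, but -0.36 on another probe that did not pass and -0.058 with scanner values centred on the array median). The serine protease gene Htra1 fell (-1.49), the only fall of the list (4.17% against 4.32%), and 3 of the 5 rises lay on chromosomes 8 and 11. Of 23 neuronal and secretory vesicle genes, 4 rose (17.4% against 7.21%), led by the prohormone processing gene Cpe of chromosome 8 (1.62) and the growth cone gene Gap43 (1.38). Stmn3 was the only fall of that list (-0.72), which is 4.35% against 4.32%.

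Of 19 amino acid and glucose transporter genes, 2 fell (10.5% against 4.32%) and 1 rose. Slc7a1, the cationic amino acid transporter, lay at 0.31, 0.28, 0.55 and 0.61 on the control-kd arrays. It lay at -1.68, -1.65, -1.37 and -1.42 on the Taf5-kd arrays, and fell by 1.97 ± 0.14 (adjusted p = 0.0183). Its other probe, with median signals of 570.2 and 659.9 units in control-kd and Taf5-kd cells, gave a difference of -0.0057. The fall of Slc7a1 thus rests on 1 probe. The glutamine transporter gene Slc1a5 also fell (-0.77), and the lactate carrier gene Slc16a3 of chromosome 11 rose (0.57). Of 21 serine, glycine and one-carbon enzyme genes, 5 fell (23.8% against 4.32%) and 1 rose. Cth, which makes cysteine from cystathionine, lay at 0.76 and 1.05 in the control-kd lines and at -0.47 and -0.97 in the Taf5-kd lines, a difference of -1.63 ± 0.20. The methionine synthase gene Mtr (-0.82) and the glycine cleavage gene Amt (-0.79) fell, and Ahcy, which hydrolyses S-adenosylhomocysteine, rose (0.59). The median difference of the list was -0.09. Of 22 nucleotide synthesis genes, 3 rose (13.6% against 7.21% of all genes), Dhodh (0.54), Impdh1 (0.46) and Gmps (0.36). Rrm2, the small subunit of ribonucleotide reductase, was among 2 falls (-0.67), which is 9.09% against 4.32%. Rrm2b, the p53-inducible form of that subunit, rose by 0.84 from -0.37 and -0.60 to 0.26 and 0.44. Its other probe, with median signals of 66.8 and 74.2 units in control-kd and Taf5-kd cells, gave a difference of -0.086 (adjusted p = 0.525). The p53 targets Sesn2 (-0.91, but -0.0017 on another probe above background on all 8 arrays) and Eda2r (-0.61) fell. Rrm2b, Sesn2 and Eda2r were the 3 changes among 26 p53 target genes, 1 rise (3.85% against 7.21% of all genes) and 2 falls (7.69% against 4.32%).

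Among stress and protein quality genes, 5 of 24 cytosolic chaperone genes rose (20.8% against 7.21%), including the chaperonin subunit gene Cct4 (0.71), Dnajb1 (0.70) and the co-chaperone gene Bag3 (0.64), and Hspb1 fell by 1.48 ± 0.09 (adjusted p = 0.0173). The list's median difference was 0.25, and 2 of the 5 rises were on chromosomes 8 and 11. Of 31 proteasome subunit genes 4 rose (12.9% against 7.21%), Psmb3 (0.55), Psmb6 (0.54), Psmd2 (0.47) and Psmc5 (0.38), all but Psmd2 on chromosome 11. The 3 lysosome and autophagy genes that rose out of 27 (11.1% against 7.21%), Becn1 (0.71), Mcoln1 (0.70) and Map1lc3b (0.44), were all on chromosomes 8 and 11. The galactosidase gene Gla was the only fall of that list (-0.32), which is 3.7% against 4.32%. Of 24 glutathione and NRF2 response genes, 4 rose (16.7% against 7.21%) and 2 fell (8.33% against 4.32%), with none of the 6 on those chromosomes. Gclm, the modifier subunit of the enzyme that starts glutathione synthesis, lay at -0.33 and -0.28 in the control-kd lines and at 0.58 and 0.56 in the Taf5-kd lines on its brightest probe. Its other probes gave differences of -0.23 and -0.43 without passing (adjusted p = 0.104 and 0.0501), so the direction of Gclm is uncertain. The glutathione transferase genes Gstm5 (1.18) and Gsto1 (0.95) rose and Gsta4 fell (-1.48 ± 0.13, adjusted p = 0.0207). Among 17 genes of the Bcl2 family none rose, and the cell death genes Bmf (-1.23) and Bnip3 (-1.19) fell (11.8% against 4.32% of all genes). Both lay within 0.5 of the parental level in the Taf5-kd lines and more than 0.5 above it in the control-kd lines, Bnip3 for example at 1.03 and 0.60 against -0.44 and -0.30. In iron and haem metabolism the enzyme genes Alad (0.46) and Urod (-0.37) changed out of 17, which is 5.88% in each direction.

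Of 29 chromatin remodeller genes, 3 rose (10.3% against 7.21% of all genes) and 2 fell (6.90% against 4.32%), and all 3 rises were on chromosome 11. Smarce1, a subunit of the BAF complex, lay at -0.61 and -0.56 in the control-kd lines and at 0.72 and 0.57 in the Taf5-kd lines, and rose by 1.23 ± 0.07 (adjusted p = 0.017). Smarcd2 rose by 0.47, and Mta3 of the NuRD complex (-0.62) and Actl6a (-0.51) fell. H3f3b, which codes for the histone variant H3.3 and also lies on chromosome 11, rose by 1.15 and was the only change among 19 histone genes (5.26% against 7.21%). Of 30 splicing factor genes 4 rose (13.3%) and none fell: Hnrnpa1 (0.75, but -0.59 on another probe that did not pass), Srsf9 (0.53), Tra2a (0.47) and Srsf2 (0.42), only Srsf2 of them on chromosome 11. Of 25 genes of rRNA synthesis and the nucleolus, the nucleophosmin gene Npm1 of chromosome 11 (0.99) was among 2 rises (8.00%). The RNA polymerase I initiation factor gene Rrn3 (-0.87), the pseudouridine synthase gene Dkc1 (-0.68) and Tcof1 (-0.45) were the 3 falls (12.0%).

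**Figure D4:**
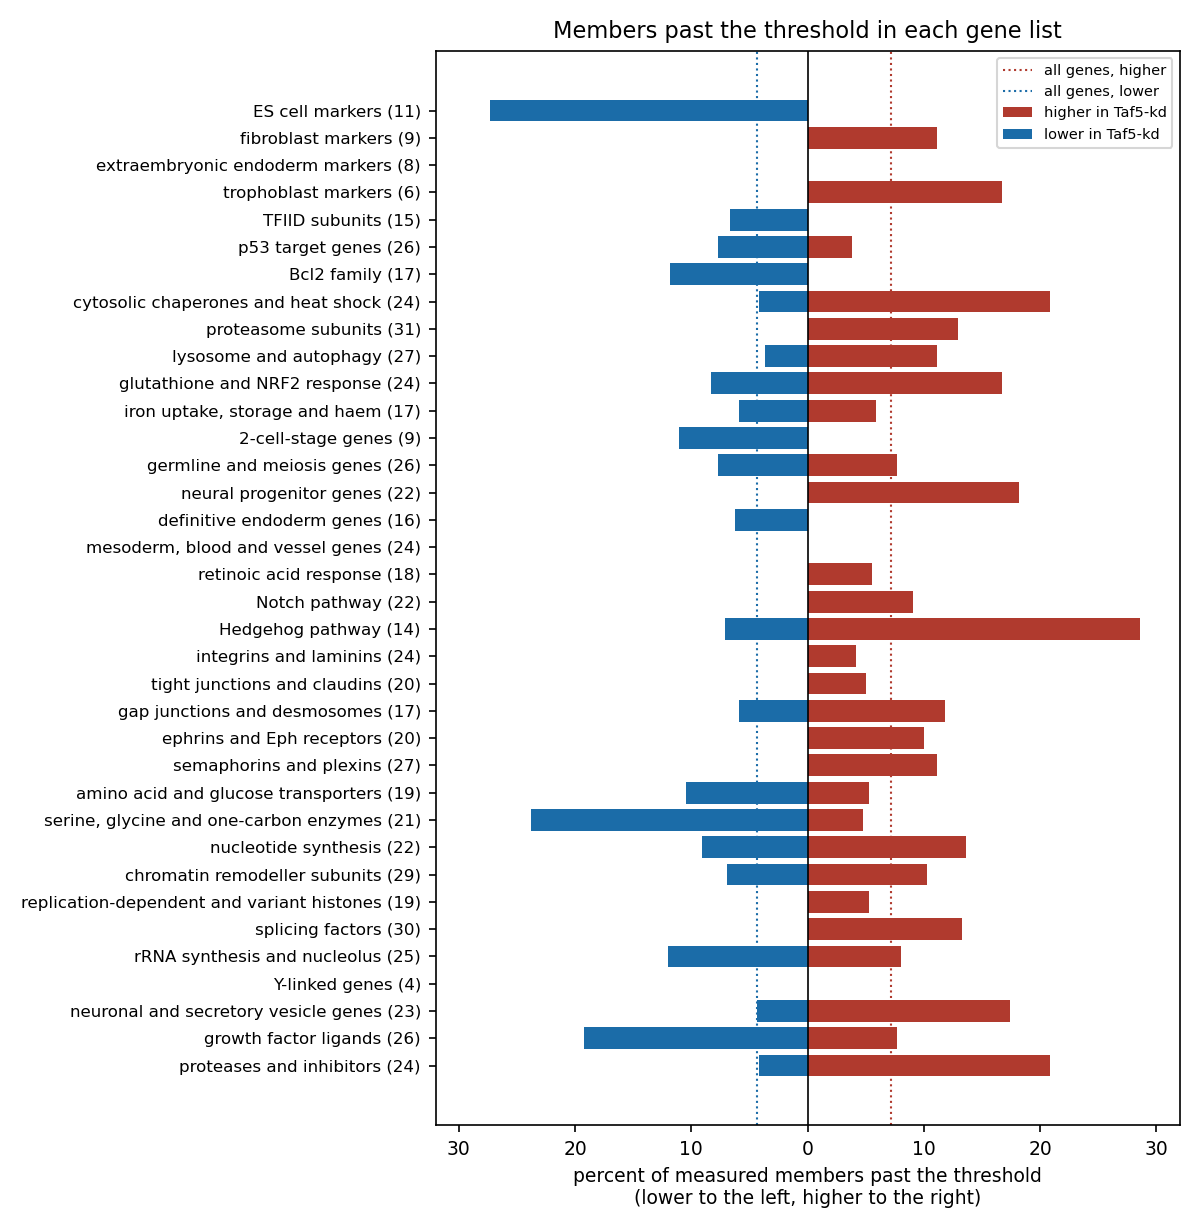
Percent of the measured members of each of 36 gene lists that passed the threshold, with genes higher in Taf5-kd cells drawn to the right and lower ones to the left, and the number of measured members in brackets. Dotted lines mark the share over all genes, 7.21% higher and 4.32% lower. The Hedgehog list has the longest bar to the right, 4 of 14, and the ES cell markers the longest to the left, 3 of 11.

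The rises were unevenly placed in the genome. On chromosome 8, 234 of 893 genes rose (26.2% against 7.21% of all genes) and 15 fell, and on chromosome 11, 322 of 1450 rose (22.2%) and 16 fell. On the other chromosomes together 763 genes rose and 757 fell out of 15901, which is 4.80% and 4.76%. The surplus of rises over falls thus lay on these 2 chromosomes. In the control-kd lines the genes of chromosome 8 that were brighter than the median gene had median levels of -0.15 and -0.14, against 0.14 and 0.19 in the Taf5-kd lines. For chromosome 11 these medians were -0.15 and -0.14 against 0.10 and 0.13. The shift of chromosome 8 was present in all 5 equal stretches of its gene order, with median differences of 0.31 to 0.42, and on chromosome 11 they ran from 0.20 to 0.38. The median differences of the other autosomes and the X chromosome ranged from -0.07 to 0.05. Levels on chromosomes 8 and 11 thus departed from the parental pool in opposite directions in the 2 groups. Of the 30 leading genes 4 lie on these chromosomes, Irgm1 and the 3 defensin genes, and without the probes of both chromosomes 2002 probes passed, 1005 higher and 997 lower. The part of the chromosome-wide shift in the rise of any single gene was not tested.

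**Figure D5:**
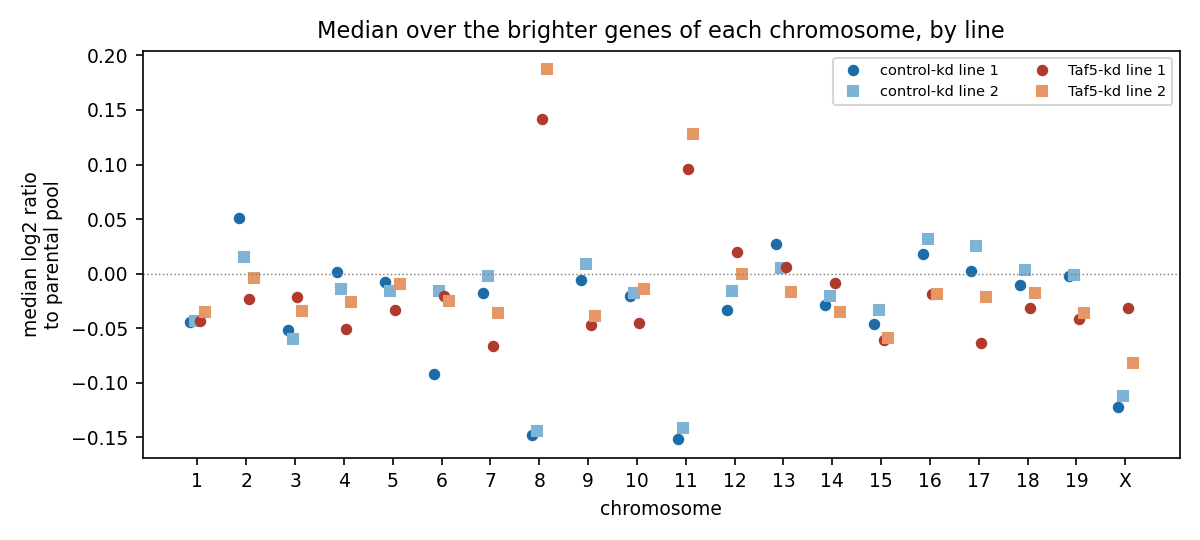
Median log2 ratio to the parental pool over the brighter genes of each chromosome (vertical axis), by chromosome (horizontal axis, Y not drawn), with 1 point per line. On chromosomes 8 and 11 the Taf5-kd lines lie at 0.10 to 0.19 and the control-kd lines at -0.15 to -0.14.

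Since TFIID contacts the core promoter, the promoters of the genes that passed were searched for its best-known element. RefSeq promoters of assembly GRCm38.p6, from 250 bases before to 50 after the annotated start, were found for 14652 of the 18295 genes. The letters TATAAA, on the sense strand with the first base 40 to 20 bases before the start, were held by 2.22% of all 27025 promoters in the table and by 2.52% of those of measured genes. They were held by 20 of 1047 promoters of genes that rose (1.91%), by 10 of 638 of genes that fell (1.57%) and by 2.61% of those of genes that did not pass. The letters GGGCGG, on either strand in the 200 bases before the start, were held by 31.3% of all promoters, by 58.7% of the rises, 56.6% of the falls and 44.4% of the genes that did not pass. The letters CCAAT, searched in the same way, were held by 8112 of all 27025 promoters and by 32.9% of the rises, 34.2% of the falls and 31.5% of the others. The genes that passed were also brighter, with a median log2 intensity of 9.25 for rises and 9.52 for falls against 8.03 for the others, and the part of brightness in these shares was not tested. None of the 22 leading genes with a promoter in the table held TATAAA in that window. A match is a description of letters and no evidence of binding.

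Among genes that passed with every pairing at least 1, the element was held by 4 of 106 promoters of rises (3.77%) and 1 of 64 of falls (1.56%). The share among measured genes was 2.52%. The genes with the element are shown because they span the range of levels found above. They were chosen after the values had been seen. Each sequence is the 60 bases before the start, 5′ to 3′ on the strand of the gene, with the TATAAA in capitals.
Fnd3c2: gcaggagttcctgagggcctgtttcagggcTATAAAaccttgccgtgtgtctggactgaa
Ccn1: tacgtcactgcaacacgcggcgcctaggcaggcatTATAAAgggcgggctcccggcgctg
Tgfb2: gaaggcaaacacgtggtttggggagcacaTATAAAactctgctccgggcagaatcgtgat
H3f3b: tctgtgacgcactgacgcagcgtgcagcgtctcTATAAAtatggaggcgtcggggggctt
Nr0b1: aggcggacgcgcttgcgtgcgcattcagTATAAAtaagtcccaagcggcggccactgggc
In GRCm38.p6 these lie at chrX:106255373-106255432 (minus strand) for Fnd3c2, chr3:145649986-145650045 (minus) for Ccn1, chr1:186705990-186706049 (minus) for Tgfb2, chr11:116024505-116024564 (minus) for H3f3b and chrX:86191715-86191774 (plus) for Nr0b1. The element begins 30, 25, 31, 27 and 32 bases before the start in that order. Ccn1, a matrix-associated signalling protein gene, lay at -2.88 and -2.56 in the control-kd lines and at -0.31 and -0.89 in the Taf5-kd lines, and rose by 2.12 ± 0.23. Tgfb2 lay at -1.30 and -1.39 against 0.44 and -0.12. H3f3b lay at -0.38 and -0.32 against 0.90 and 0.70, above the parental level in both Taf5-kd lines. Nr0b1, an orphan nuclear receptor gene expressed in ES cells, was the fall, at 1.35 and 1.55 in the control-kd lines against -0.87 and 0.06 in the Taf5-kd lines, a difference of -1.86 ± 0.33 (adjusted p = 0.0484). Among these few genes, the same element was found in rises and in a fall.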

How the data were processed

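RNA of 4 lines was measured on 8 two-colour arrays. The authors deposited a processed matrix of log2 ratios of sample over parental pool, scanner intensity tables (per the file headers, mean signal and local background of 45220 spots) and a comparison table with a log2 difference and a p-value. The authors' background treatment, normalization and test are unknown, as no label or header states them. The deposited log2 ratios were used as they are. Their direction was checked against the scanner channels, and the array medians run from -0.0061 to 0.0073. The difference of group means equals the deposited one plus a constant of 0.0219. Above background means a spot's mean signal over its local background median plus 2 SDs. The 41174 mouse probes were kept, 4046 control spots were left out, and 34186 probes had a symbol in the platform annotation, of which 30365 were current in RefSeq (GRCm38.p6), 3726 were updated and 95 were kept as given.

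The 2 arrays of a line were averaged, and 2 against 2 lines were compared with limma 3.58.1 (lmFit and eBayes, two-sided, R 4.3.3). P-values were adjusted by Benjamini-Hochberg over all probes, with 0.05 as the threshold, and the procedure was tested on simulated data. The number of lines limits the precision. An exact permutation of 2 against 2 lines cannot go below 0.333 and was not used. A gene is its brightest probe. The genes named are Taf5, the 15 rises and 15 falls with the largest smallest pairing among symbols that are no clone or accession names and are above background on at least 2 arrays per group, up to 4 members per list that passed (otherwise up to 2 by p) and up to 4 per class against the parental level. Others (AU018091, Fnd3c2, Ccn1, Nr0b1, further macrophage, trophoblast, Y-linked and ES cell genes) were chosen after their values were seen. The members and lists were chosen with earlier results of these data known. Alternatives were scanner intensities under other background and normalization choices, all arrays as units, filters, and leaving out each line or array.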

Additional observations from a re-analysis of the deposited data

Results flagged for a closer look

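Among the control-kd and Taf5-kd arrays of Taf5 and the 30 leading genes, 62 groups of 4 arrays were screened for a single array far from the others. The limit used would flag about 1 in 20 groups of 4 independent values. Here the 4 arrays are 2 from each of 2 lines, so the rate by chance is not known. The group found was Zfp677 in control-kd cells, where the first array of control-kd line 2 stood at -1.25 and the nearest of the other 3 at -1.64. That array is nearer to the Taf5-kd arrays, which lay at 0.81 to 2.04 and did not overlap with it.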

How the results depend on the processing

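The 3610 probes that passed became 2759 with scanner values under normexp and loess, 3431 without background subtraction, 3590 without dim probes and 3328 with an intensity trend. They became 2002 without chromosomes 8 and 11 (1005 higher, 997 lower), 2159 genes with 1 probe per gene, and 147 with scanner values centred on the array median (75 higher, 72 lower; 143 shared with the 3610; 3832 at an unadjusted p under 0.05). Why centring without loess leaves so few was not tested. With the 8 arrays as units, the array number as a replicate block and the line as a random block, 8891 passed, 3588 of them among the 3610. The array number carries the dye orientation and nothing else in the labels, which give no pairing of cultures. Same-numbered arrays had correlations of -0.437 to -0.156 around line means. If a dye effect was removed across arrays in the unknown processing, such deviations cannot move together. These correlations thus cannot decide whether cultures were paired. Leaving out a line gave 0 to 1128 probes and leaving out an array 3231 to 3759, where a lone line or array is assumed to vary like the rest. The difference of Taf5 ran from -1.68 to -1.32 over these, and its call was lost without control-kd line 2 (-1.68), Taf5-kd line 1 (-1.49) and Taf5-kd line 2 (-1.52). Under the other settings Taf5 lay between -1.50 and -1.41, and within the dye orientations at -1.46 and -1.54, a check chosen after seeing the data. The count of probes with all pairings in 1 direction was 12438 under median centring and 11342 with 1 probe per gene. Of the 30 leading genes, 8 lost their call under median centring and 3 under scanner loess, and of 135 named genes 89 and 27 did. Without chromosomes 8 and 11, 1 of the 26 leading and 17 of the 107 named genes that remained lost theirs. Of the 72 list counts (36 lists, each direction), 49 were smaller without control-kd line 2 or Taf5-kd line 1, where none passed, 46 under median centring and 29 without chromosomes 8 and 11. Signs turned in 5 named genes, of which only Plaur had passed: Ttr (0.052), Kdm5d (-0.10) and Plaur (-0.058) under median centring, Sox7 (0.079, and -2.03 without control-kd line 1) without control-kd line 2, and Tal1 (-0.018 to 0.33) on leaving out single arrays of control-kd line 1. With 2 lines per group, small differences of dim genes cannot be resolved.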
